A study of Danio rerio with 12 samples.

Results

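The transcriptomes of cardiomyocytes that lack hand2 were compared with those of cardiomyocytes from the same families in which the gene is present. Values are given as normalized read counts, in libraries 1, 2 and 3 of a group in turn. The comparison took in every gene of the mutant table whose mean normalized read count over the 6 libraries was at least 5, which left 17877 of 21570 genes, in 6 of the 12 RNA libraries of the series. The mutants were zebrafish embryos homozygous for the hand2 FLD allele (hand2 FLD-/-), in which the coding part of the gene between guide sites in its untranslated regions is deleted. The controls were their hand2 FLD+/? siblings, a mixture of homozygous wild-type and heterozygous embryos that the labels do not tell apart, and both groups carried the reporter Tg(myl7:EGFP). Its promoter, that of a myosin light chain gene of the myocardium, chose the cells. EGFP-positive cells of the embryonic heart field were sorted by flow cytometry at 20 h after fertilization. Cells of a mutant that had not switched on the reporter were thus not selected. A sort can still hold other cells, and their markers are given below. Each group had 3 libraries made from about 1 ng of total RNA. The study describes the samples of each group as biologically independent, and p-values measure the spread between them. How many embryos were pooled for a library is not given in the sources used here. The other 6 libraries come from a hand2 overexpression line and its controls, were normalized in a table of their own, and are not used here.

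Hand2 is a basic helix-loop-helix transcription factor of the lateral plate mesoderm, the sheet from which heart, vessels, blood, mesothelium and limb connective tissue arise. It works in dimers with other helix-loop-helix proteins. In zebrafish embryos without it the paired myocardial populations on either side of the midline stay apart, a defect called cardia bifida, and pectoral fins do not form properly. The heart field at this stage consists of cells that are switching on contractile genes while they still move as an epithelial sheet over endoderm and extracellular matrix, with endothelial and endocardial precursors next to them.

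The libraries of a group were alike. Over the 12490 genes that averaged 50 or more, Pearson's correlation of log2 values across genes, which are not independent replicates, was 0.9645 to 0.9663 between mutants and 0.9594 to 0.9756 between controls, and 0.7989 to 0.8306 across the groups. Deposited values summed to between 6728865 and 6749894 per library in mutants and between 6939409 and 6965321 in controls, and the spacing of low values put the counted reads at about 6846308 to 7658592 in mutants and 6527481 to 6766618 in controls. Genes with very many reads per base had a common order in the mutants. The 20 genes with the most normalized counts per base of their genomic span in controls, hand2 at 1.24 among them, held 0.834 to 1.62 counts per base, and in 17 of these 20 the 3 mutant libraries stood in the reverse order of their estimated depth, as did 2725 or 21.8% of all 12490 genes. hand2 (149, 427 and 45) was not in this order. Whether duplicate reads were removed before counting is not given in the sources used here, and the cause of this order was not tested. The span includes introns, and by this measure myl7 was at 0.257 and nkx2.5 at 0.620 counts per base.

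hand2 itself was found at 149, 427 and 45 normalized counts in mutants, against 2228, 2336 and 2380 in controls, an 11.2-fold lower mean. None of the mutant values came near those of controls, and the mutants differed among themselves by more than the controls did, with the second library the highest (log2 fold change −4.01, SE 0.62, adjusted p = 0.00124, limma with Benjamini-Hochberg adjustment over all genes tested). Without the second mutant library the log2 fold change was −4.80, and without the third −3.19. The gene lies on chromosome 1 at 38193147 to 38195012 (danRer11). An exact two-sided permutation test of 3 libraries against 3 gave p = 0.10, the smallest value it can give. The table holds 1 value a gene, so whether the remaining reads in mutants lie inside or outside the deleted stretch was not tested.

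Over all genes, 1685 were lower in mutants (9.43% of those tested) and 1625 were higher (9.09%), at an adjusted p of 0.05 or less and a change of more than 1.5-fold in limma. Together these were 3310 genes or 18.5%. Many differences were large, since 616 of the lower genes and 406 of the higher ones changed by more than 4-fold, and 141 and 68 by more than 16-fold. The 3 mutant values did not overlap the 3 control values in 44.3% of the genes tested and in 3302 of the 3310 called genes. A lack of overlap in a called gene, where stated below, therefore adds little to its call. The median standard error was 0.20 on the log2 scale.

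**Figure D1:**
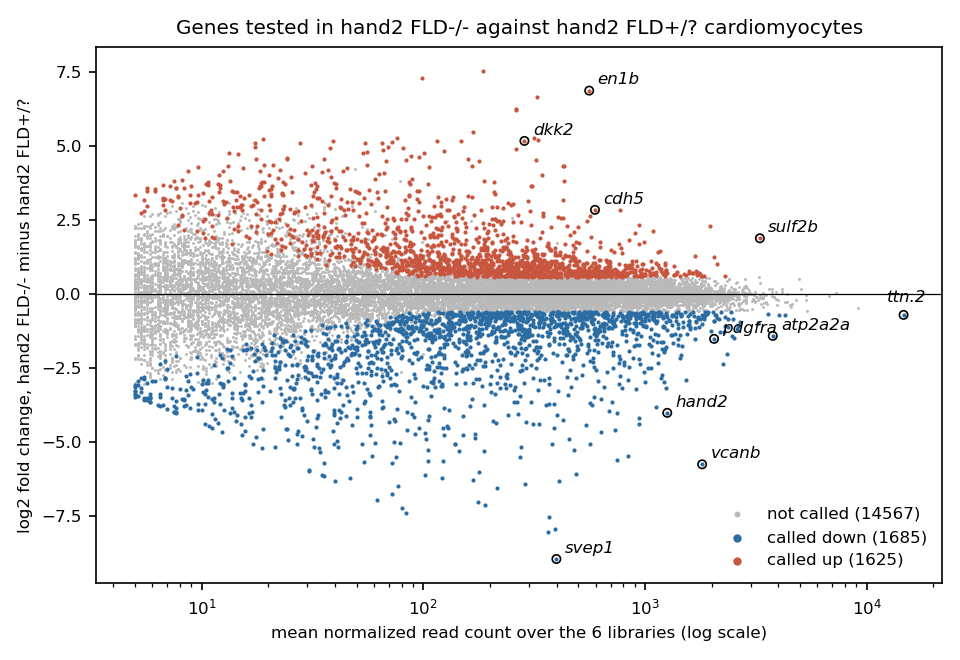
Mean normalized read count of each gene tested over the 6 libraries (log scale) against its log2 fold change in hand2 FLD-/- over hand2 FLD+/? cardiomyocytes, with 1685 genes called down in blue, 1625 called up in red and the rest in grey. Circled genes are named in the text, and hand2 lies at −4.01.

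The sorted cells of both groups had the markers of myocardium that the label states. Of 9 markers tested, 3 were lower in mutants (hand2, myh6 and gata4) and none was higher. The 3 were 33.3% of the list, with 9.43% of all genes called lower. The summed level of the list was 10698 to 11345 in mutants and 18239 to 18894 in controls. That sum includes the deleted gene hand2 (mean 207 in mutants and 2315 in controls) and myh6 (726 and 3755). The regulatory light chain gene myl7, whose promoter drives the reporter, was at 1627, 1681 and 1801 in mutants, against 1984, 2024 and 2025 in controls. The thin filament genes tnnt2a and tnni1b encode cardiac troponins, and tnnt2a stood at 1676, 1740 and 1810 in mutants, against 2046, 2088 and 2054 in controls. All 3 genes were lower in each mutant than in each control, but by less than the threshold, with log2 fold changes of −0.24 for myl7, −0.24 for tnnt2a and −0.39 for tnni1b. In RNA of sorted pools, fewer cells that express a gene and less RNA per cell cannot be told apart, here and for each gene that follows.

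Among 35 sarcomere and myofibril genes tested, 10 fell and 1 rose in mutants, with a median log2 fold change of −0.27 beside 0.00 over all genes tested. The shares were 28.6% and 2.86%, with 9.43% and 9.09% of all genes. In 30 of the 35 the change was negative. At any fold, 25 had an adjusted p of 0.05 or less in limma on the lower side, as had 2642 of all 17877 genes. Myosin heavy chain genes were among the furthest down. myh7l, a cardiac myosin heavy chain gene, had 392, 361 and 334 in mutants, against 2756, 2617 and 2686 in controls (log2 fold change −2.89, SE 0.07, adjusted p = 1.65e-07, limma). The atrial myosin heavy chain gene myh6 had 687, 722 and 770 in mutants, against 3946, 3906 and 3412 in controls (log2 fold change −2.37, SE 0.07, adjusted p = 1.65e-07, limma). In both genes the groups lay several-fold apart and the mutants stayed within a narrow band. By contrast myh7, the ventricular myosin heavy chain gene, had 7743, 7473 and 7736 in mutants, against 10575, 10643 and 10775 in controls, a log2 fold change of −0.48 that did not reach the fold threshold although no mutant value reached a control value.

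Other sarcomere genes that fell build the lattice around the myosins. The M-band crosslinker myom1a was at 427, 279 and 321 in mutants, against 1464, 1502 and 1636 in controls, and csrp3, a LIM-domain protein of the Z-disc, was at 21, 20 and 29 in mutants, against 86, 100 and 82 in controls. xirp1, whose product binds actin at cell ends, was at 2085, 1528 and 1523 in mutants, against 3650, 3469 and 3547 in controls. Their log2 fold changes were −2.18 for myom1a, −1.91 for csrp3 and −1.07 for xirp1, with no overlap between groups. tnnc1b, a troponin C gene, was low and fell (5, 11 and 8 in mutants, against 54, 45 and 63 in controls). The giant spring protein titin has 2 genes side by side: ttn.2 fell, with 12294, 10788 and 10540 in mutants, against 19794, 16579 and 18083 in controls (log2 fold change −0.70, SE 0.07, adjusted p = 9.01e-05, limma). ttn.1 had 6078, 4814 and 4999 in mutants, against 6070, 5116 and 5022 in controls, and its groups overlapped. The actin gene actc1c was the member that rose, at 42, 22 and 37 in mutants, against 12, 7 and 4 in controls (log2 fold change 2.06, SE 0.55, adjusted p = 0.0204, limma), but without the first or the third mutant library its adjusted p was 0.0784 or 0.0696 in limma.

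Of 17 genes for ion channels and calcium handling, 7 fell and 1 rose (median −0.53). That was 41.2% and 5.88%, with 9.43% and 9.09% of all genes. Of 23 names listed, 18 were found. The gap junction gene cx43, listed as gja1b, was missed by name, is not in these counts and rose (log2 fold change 3.35). kcnh6a, which encodes the potassium channel that repolarizes the zebrafish heart, had 28, 67 and 56 in mutants, against 1280, 1232 and 1123 in controls (log2 fold change −4.65, SE 0.28, adjusted p = 4.81e-06, limma). hcn4, the pacemaker channel gene, had 623, 720 and 584 in mutants, against 2057, 1994 and 2020 in controls (log2 fold change −1.66, SE 0.08, adjusted p = 1.08e-06, limma), and the T-type calcium channel gene cacna1g had 884, 617 and 713 in mutants, against 1966, 1925 and 1805 in controls (log2 fold change −1.38, SE 0.11, adjusted p = 2.98e-05, limma). The 3 genes were lower in every mutant than in any control, kcnh6a by the widest margin. The 2 genes for the sarcoplasmic reticulum calcium pump, SERCA2, did not go together. atp2a2a had 2085, 1973 and 2121 in mutants, against 5315, 5504 and 5646 in controls (log2 fold change −1.41, SE 0.04, adjusted p = 1.65e-07, limma). atp2a2b had 2285, 2294 and 2209 in mutants, against 2143, 2132 and 1979 in controls (log2 fold change 0.12). pln, the inhibitor of that pump, was at 79, 65 and 84 in mutants, against 793, 810 and 862 in controls (log2 fold change −3.42). The annotation in the table gives pln an antisense biotype and whether reads were counted by strand is not stated, so reads of an overlapping gene cannot be told apart from its own. The sodium-calcium exchanger gene slc8a1a fell (1916, 1555 and 1663 in mutants, against 3163, 3118 and 2869 in controls). The ryanodine receptor gene ryr2b missed the threshold (2779, 2407 and 1924 in mutants, against 3589, 3186 and 3403 in controls) but passed it without the first mutant library (log2 fold change −0.65). kcnj2a, an inward rectifier potassium channel gene, rose to 390, 279 and 368 in mutants, against 125, 123 and 109 in controls.

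Cardiac transcription factors were split. Of 34 tested, 13 fell, 2 rose and 19 did not pass (median −0.07). Shares were 38.2% down and 5.88% up, with 9.43% and 9.09% of all genes. The core factor nkx2.5 was at 1610, 1766 and 1754 in mutants, against 1716, 1752 and 1731 in controls, with overlapping groups, and gata6 was at 1917, 1932 and 2017 in mutants, against 2178, 2262 and 2282 in controls (log2 fold change −0.20). gata4, which shares the gata6 binding sequence, fell to 180, 155 and 201 in mutants, against 370, 379 and 297 in controls (log2 fold change −0.96, SE 0.15, adjusted p = 0.00126, limma).

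The T-box genes of the list went in opposite directions. tbx5a, required for heart and pectoral fin, had 279, 220 and 247 in mutants, against 940, 979 and 1010 in controls (log2 fold change −1.97, SE 0.10, adjusted p = 1.91e-06, limma), and its paralogue tbx5b had 56, 54 and 46 in mutants, against 203, 160 and 196 in controls (log2 fold change −1.82). tbx2a, a repressor of chamber genes in the atrioventricular canal, had 242, 281 and 239 in mutants, against 1295, 1308 and 1237 in controls (log2 fold change −2.33, SE 0.09, adjusted p = 3.81e-07, limma). tbx3a, a repressor of the same subfamily, had 1537, 1674 and 1520 in mutants, against 319, 315 and 297 in controls and so rose (log2 fold change 2.34, SE 0.07, adjusted p = 1.65e-07, limma). Within each of these genes the mutants stayed close together, and the groups did not overlap. irx4a, a homeobox gene whose mouse counterpart marks the ventricle, fell to 103, 115 and 152 in mutants, against 314, 339 and 344 in controls, and foxf1, a forkhead gene of splanchnic mesoderm, fell to 8, 55 and 26 in mutants, against 180, 174 and 221 in controls. The other riser of the list was foxc1a, a forkhead gene of cranial and paraxial mesoderm, with 545, 587 and 658 in mutants, against 107, 68 and 118 in controls (log2 fold change 2.63, SE 0.20, adjusted p = 2.07e-05, limma).

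**Figure D2:**
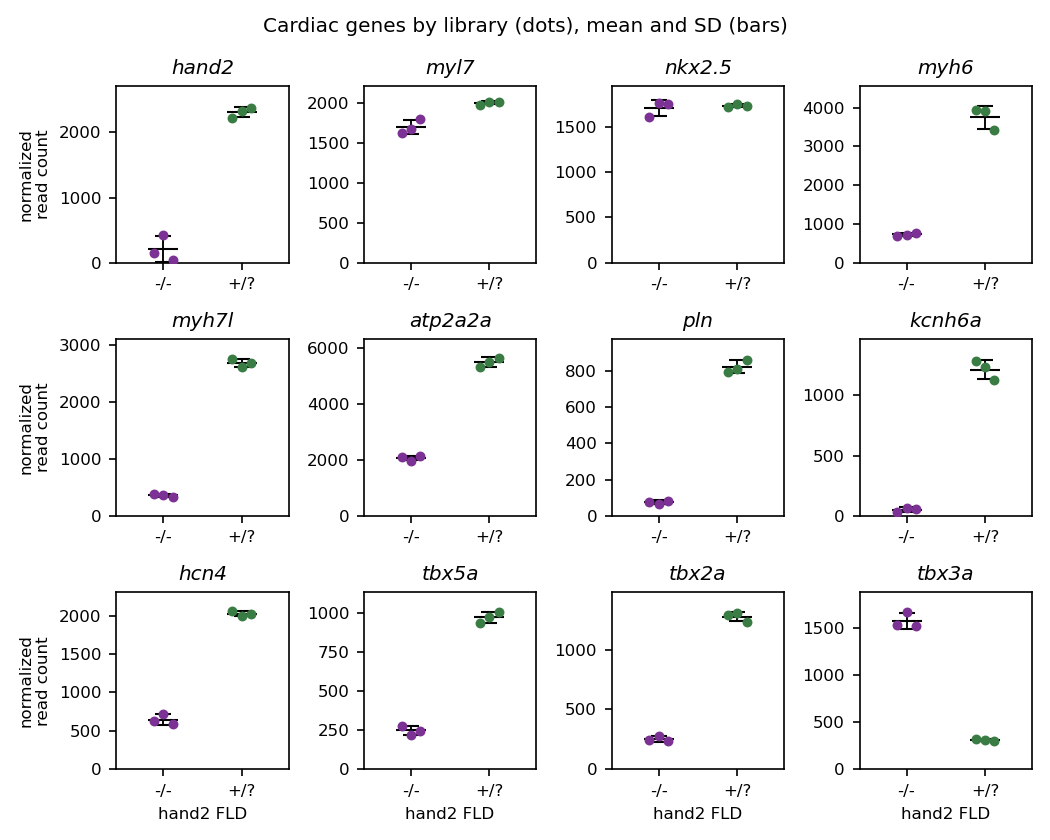
Normalized read counts of hand2 and 11 cardiac genes by library, in hand2 FLD-/- (left in each panel) and hand2 FLD+/? cardiomyocytes (right), with dots for the 3 libraries of a group and bars for mean ± SD, each panel on its own axis from 0. The groups are far apart for kcnh6a, pln, myh6, myh7l and tbx3a, lie close for myl7 and overlap for nkx2.5.

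Hand2 binds DNA together with other helix-loop-helix proteins. Of 12 such partner and inhibitor genes tested 4 fell and none rose (33.3% down, with 9.43% of all genes, median −0.89). twist1b, a Twist factor that can dimerize with Hand proteins in mouse, had 42, 128 and 5 in mutants, against 1001, 1084 and 1143 in controls (log2 fold change −5.06, SE 0.87, adjusted p = 0.00221, limma, −3.85 without the third mutant library). Its paralogue twist1a had 262, 390 and 302 in mutants, against 852, 934 and 959 in controls (log2 fold change −1.54, SE 0.14, adjusted p = 4.61e-05, limma). The decrease was thus smaller for twist1a, and in neither gene did the groups meet. Among the E proteins, the general partners of the family, tcf12 fell to 618, 575 and 567 in mutants, against 1771, 1783 and 1794 in controls (log2 fold change −1.60, SE 0.06, adjusted p = 3.11e-07, limma). tcf3b had 2044, 1999 and 2066 in mutants, against 1923, 1899 and 1821 in controls (log2 fold change 0.11). Id proteins lack a DNA-binding region and sequester E proteins. id2b fell to 48, 37 and 30 in mutants, against 230, 219 and 279 in controls. id2a had 698, 785 and 724 in mutants, against 1039, 1020 and 994 in controls, a log2 fold change of −0.47 that missed the fold threshold, and id3 stood slightly higher in mutants (0.27).

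Of 13 genes of epithelial-to-mesenchymal transition tested 7 fell and 1 rose, with a median log2 fold change of −1.31 beside 0.00 over all genes. Called lower and higher were 53.8% and 7.69%, with 9.43% and 9.09% of all genes. snai2, a zinc finger repressor of cadherins, had 54, 140 and 81 in mutants, against 1707, 1780 and 1886 in controls (log2 fold change −4.38, SE 0.28, adjusted p = 6.55e-06, limma). prrx1b, a homeobox gene of mesenchyme, had 20, 0 and 6 in mutants, against 207, 194 and 202 in controls (log2 fold change −5.26, SE 0.92, adjusted p = 0.00236, limma, −4.06 without the second mutant library). prrx1a fell less, with 658, 790 and 649 in mutants, against 1135, 1211 and 1191 in controls (log2 fold change −0.76). zeb2b, another repressor of the E-box sequence, had 9, 87 and 72 in mutants, against 250, 221 and 256 in controls, and without any 1 control library its adjusted p was 0.0523 to 0.0613 in limma. Its paralogue zeb2a was at 2155, 2094 and 2238 in mutants, against 1838, 1643 and 1639 in controls and missed the fold threshold on the higher side. The groups of snai2, prrx1b and zeb2b were far apart, and the first mutant library was the lowest for snai2 and zeb2b. snai1a was the member that rose (659, 646 and 624 in mutants, against 229, 314 and 250 in controls, log2 fold change 1.29, SE 0.12, adjusted p = 6.90e-05, limma).

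Genes of the lateral plate and of the mesothelium, the cell layer that lines body cavities and gives rise to epicardium and visceral smooth muscle, had the highest share of falls among the lists. Of 30 tested, 17 fell, hand2 among them, and 1 rose, so 56.7% were called down where 9.43% of all genes were (median −0.80). foxf2a, a forkhead gene of visceral mesoderm, was at 17, 5 and 0 in mutants, against 246, 256 and 211 in controls (log2 fold change −5.64, SE 0.87, adjusted p = 0.00122, limma, −4.52 without the third mutant library). osr1 and osr2 encode odd-skipped factors of lateral and intermediate mesoderm: osr1 had 13, 7 and 0 in mutants, against 77, 63 and 77 in controls. osr2 had 2, 23 and 30 in mutants, against 151, 138 and 209 in controls. jam2b, a junctional adhesion molecule gene of the lateral plate, had 76, 133 and 98 in mutants, against 1125, 1180 and 1178 in controls (log2 fold change −3.53). None of the 4 had a mutant value near a control value, and osr1 had at most 13 in a mutant. The exception was tbx18, a marker of epicardial progenitors, which rose to 39, 76 and 58 in mutants, against 8, 17 and 15 in controls (log2 fold change 2.04, SE 0.45, adjusted p = 0.00797, limma). gata6, ccn2a and meis1b, the most abundant members that were not called, had log2 fold changes of −0.20, −0.40 and −0.05.

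Extracellular matrix genes went both ways, with more falls than rises. Of 85 tested, 23 fell and 11 rose (27.1% and 12.9%, with 9.43% and 9.09% of all genes), and falls reached a log2 fold change of −8.95 in the gene svep1 (−9.62 without the second mutant library). vcanb, which encodes the hyaluronan-binding proteoglycan versican of the cardiac jelly, had 128, 155 and 13 in mutants, against 3586, 3408 and 3579 in controls (log2 fold change −5.75, SE 0.75, adjusted p = 4.55e-04, limma, −4.63 without the third mutant library). fn1b, a fibronectin gene, had 90, 166 and 59 in mutants, against 1756, 1858 and 1704 in controls (log2 fold change −4.19, SE 0.30, adjusted p = 1.28e-05, limma). The small leucine-rich proteoglycans lumican and fibromodulin bind collagen fibrils. The lumican gene lum had 24, 28 and 10 in mutants, against 399, 416 and 402 in controls. The fibromodulin gene fmoda had 63, 153 and 48 in mutants, against 1022, 1141 and 1028 in controls. In all 4 genes the second mutant library was the highest of the mutants and still far under the lowest control. gpc6a, a glypican gene of heparan sulfate proteoglycans, had 15, 2 and 21 in mutants, against 837, 754 and 827 in controls (log2 fold change −6.31, −5.43 without the second mutant library).

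Other matrix genes did not go down with them. The fibronectin gene fn1a, a paralogue of fn1b, had 5758, 6083 and 5798 in mutants, against 4137, 4139 and 3925 in controls, higher in every mutant but under the fold threshold (log2 fold change 0.53). The laminin genes lama5 and lamb1a had log2 fold changes of −0.07 and 0.16. lama1 rose to 3195, 2683 and 2602 in mutants, against 1438, 1564 and 1214 in controls (log2 fold change 1.01, SE 0.10, adjusted p = 9.41e-05, limma). hapln1a, whose product links hyaluronan to proteoglycans, had 7102, 7313 and 7654 in mutants, against 6989, 7206 and 7180 in controls, with overlapping groups. Risers included tnr, a tenascin gene known from the nervous system, with 1437, 1258 and 1363 in mutants, against 223, 131 and 233 in controls (log2 fold change 2.83, SE 0.19, adjusted p = 1.06e-05, limma). The aggrecan gene acana had 181, 160 and 125 in mutants, against 35, 28 and 17 in controls. mmp9, a gelatinase gene, had 647, 732 and 814 in mutants, against 153, 214 and 185 in controls. In these genes, too, the groups were well apart. spon1a, a spondin gene, stood at 217, 171 and 206 in mutants, against 0, 0 and 1 in controls.

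By class, 7 of 22 proteoglycan and hyaluronan genes fell and 2 rose, and 8 of 35 glycoprotein genes fell and 5 rose. Of 10 laminin genes 2 fell and 1 rose, and 6 of 18 protease and inhibitor genes fell and 3 rose. Called lower were 20.0% to 33.3% of a class and called higher 9.09% to 16.7%, with 9.43% and 9.09% of all genes. For rises, the proteoglycan and laminin classes were near the share of all genes. has2, the hyaluronan synthase gene of the heart, fell to 1466, 1405 and 1361 in mutants, against 2339, 2321 and 2306 in controls (log2 fold change −0.72, SE 0.04, adjusted p = 4.49e-06, limma). adamts3, a procollagen-processing protease gene, rose to 567, 551 and 473 in mutants, against 178, 149 and 104 in controls. The most abundant riser of all genes acts on the matrix too: sulf2b, a sulfatase gene that trims heparan sulfate, had 5137, 5008 and 5440 in mutants, against 1301, 1313 and 1600 in controls (log2 fold change 1.89, SE 0.08, adjusted p = 5.32e-07, limma).

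Collagens of different types went different ways. Of 46 tested, 14 fell and 2 rose (30.4% and 4.35%, with 9.43% and 9.09% of all genes), with a median of 0.00. The collagen VI genes, which encode the chains of a microfibril around cells, were among the furthest down: col6a1 had 1, 29 and 4 in mutants, against 606, 577 and 514 in controls (log2 fold change −6.40, SE 0.80, adjusted p = 3.61e-04, limma, −7.48 without the second mutant library). col6a2 had 3, 12 and 7 in mutants, against 154, 169 and 269 in controls (log2 fold change −4.69). col6a3 is given under 2 identifiers that overlap, and the more abundant one had 30, 23 and 31 in mutants, against 605, 593 and 591 in controls. The fibril genes col5a2a and col11a1b fell as well. col5a2a had 47, 15 and 36 in mutants, against 658, 641 and 607 in controls. col11a1b had 11, 20 and 4 in mutants, against 309, 289 and 273 in controls. The basement membrane gene col4a1 rose, with 880, 922 and 752 in mutants, against 484, 524 and 472 in controls (log2 fold change 0.78, SE 0.09, adjusted p = 2.41e-04, limma). Collagens with a multiplexin structure, known from vessel and muscle basement membranes, were abundant and fell by less: col15a1b had 3127, 2974 and 3068 in mutants, against 4945, 5024 and 4988 in controls (log2 fold change −0.71). col18a1a had 1623, 1549 and 1623 in mutants, against 3763, 3645 and 3364 in controls (log2 fold change −1.17). col14a1a, col2a1b and col12a1a, the most abundant members that were not called, had log2 fold changes of 0.14, −0.12 and 0.27.

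Integrins are the receptors for these proteins. Of 17 genes tested 8 fell and 1 rose (47.1% and 5.88%, with 9.43% and 9.09% of all genes, median −0.66). itga4, the alpha chain that binds fibronectin and VCAM1, had 582, 434 and 483 in mutants, against 1952, 1977 and 1908 in controls (log2 fold change −1.97, SE 0.10, adjusted p = 1.63e-06, limma). The collagen-binding chain gene itga1 had 3, 10 and 2 in mutants, against 69, 88 and 82 in controls. The chains of the vitronectin receptor fell as well, itgav to 138, 223 and 198 in mutants, against 452, 364 and 426 in controls. itgb5 fell to 314, 344 and 334 in mutants, against 881, 864 and 780 in controls. In contrast itga5, the fibronectin receptor chain needed for cardiac fusion in zebrafish, was at 3119, 2908 and 3116 in mutants, against 3043, 3096 and 3282 in controls, with overlapping groups (log2 fold change −0.04). The laminin receptor genes itga6a and itga6b went opposite ways: itga6a rose to 95, 68 and 120 in mutants, against 26, 31 and 18 in controls, and itga6b fell to 40, 10 and 6 in mutants, against 76, 80 and 87 in controls.

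**Figure D3:**
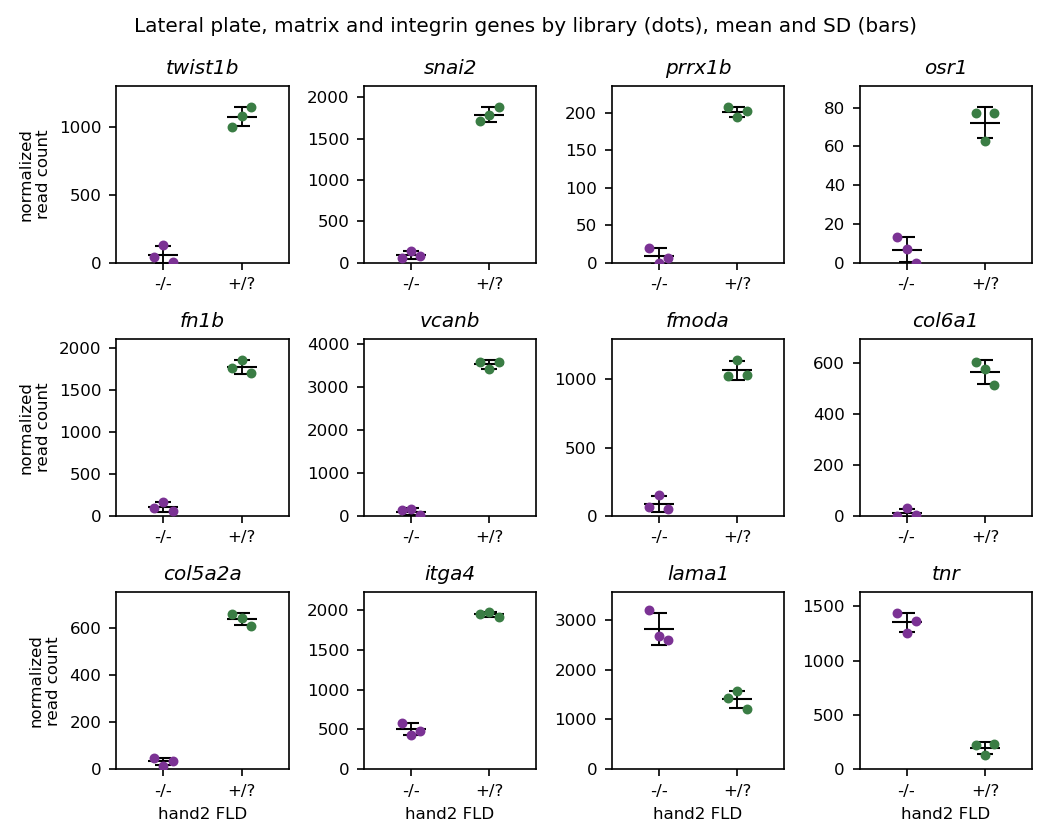
Normalized read counts of 12 mesenchyme, matrix and integrin genes by library, in hand2 FLD-/- (left in each panel) and hand2 FLD+/? cardiomyocytes (right), with dots for the 3 libraries of a group and bars for mean ± SD, each panel on its own axis from 0. For 10 of the genes the mutants lie near 0 or well below the controls, while lama1 and tnr are higher in every mutant than in any control.

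Junction genes of the epithelial heart field moved in both directions. Of 28 cadherin, catenin and desmosome genes 5 fell and 6 rose (median −0.14). The shares were 17.9% and 21.4%, with 9.43% and 9.09% of all genes. cdh2, the gene of N-cadherin, the main classical cadherin of myocardium, had 3704, 3890 and 4027 in mutants, against 5134, 5295 and 5276 in controls, lower in each mutant but under the threshold (log2 fold change −0.44). The epithelial E-cadherin gene cdh1 rose to 1124, 1123 and 1059 in mutants, against 573, 688 and 700 in controls (log2 fold change 0.76, SE 0.08, adjusted p = 1.79e-04, limma). The desmosome genes jupb and pkp2 fell, with log2 fold changes of −1.19 and −0.72, and without the first control library the adjusted p of jupb was 0.0614 in limma. cdh5, the endothelial cadherin gene, rose most (1051, 1016 and 1054 in mutants, against 214, 102 and 134 in controls, log2 fold change 2.85, SE 0.22, adjusted p = 2.28e-05, limma).

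Among 39 tight junction and polarity genes 9 fell and 7 rose (median −0.03). That was 23.1% and 17.9%, with 9.43% and 9.09% of all genes. Those that fell included apical polarity genes: pard6a had 95, 65 and 146 in mutants, against 1089, 1055 and 1091 in controls (log2 fold change −3.47, SE 0.24, adjusted p = 1.14e-05, limma). crb2a had 524, 433 and 289 in mutants, against 1571, 1479 and 1071 in controls. crb2b had 105, 57 and 71 in mutants, against 702, 777 and 715 in controls. llgl1, which acts against the apical complex, fell to 641, 743 and 584 in mutants, against 2202, 2320 and 1980 in controls. The groups did not overlap in these 4 genes. The atypical protein kinase C gene prkci was not called (log2 fold change −0.35). Of the 7 risers, esama, jam2a and cldn5a are also known from endothelium, and esama had 232, 183 and 209 in mutants, against 31, 41 and 27 in controls. tjp2a, a scaffold gene of tight junctions, rose as well (304, 331 and 395 in mutants, against 80, 129 and 58 in controls).

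**Figure D4:**
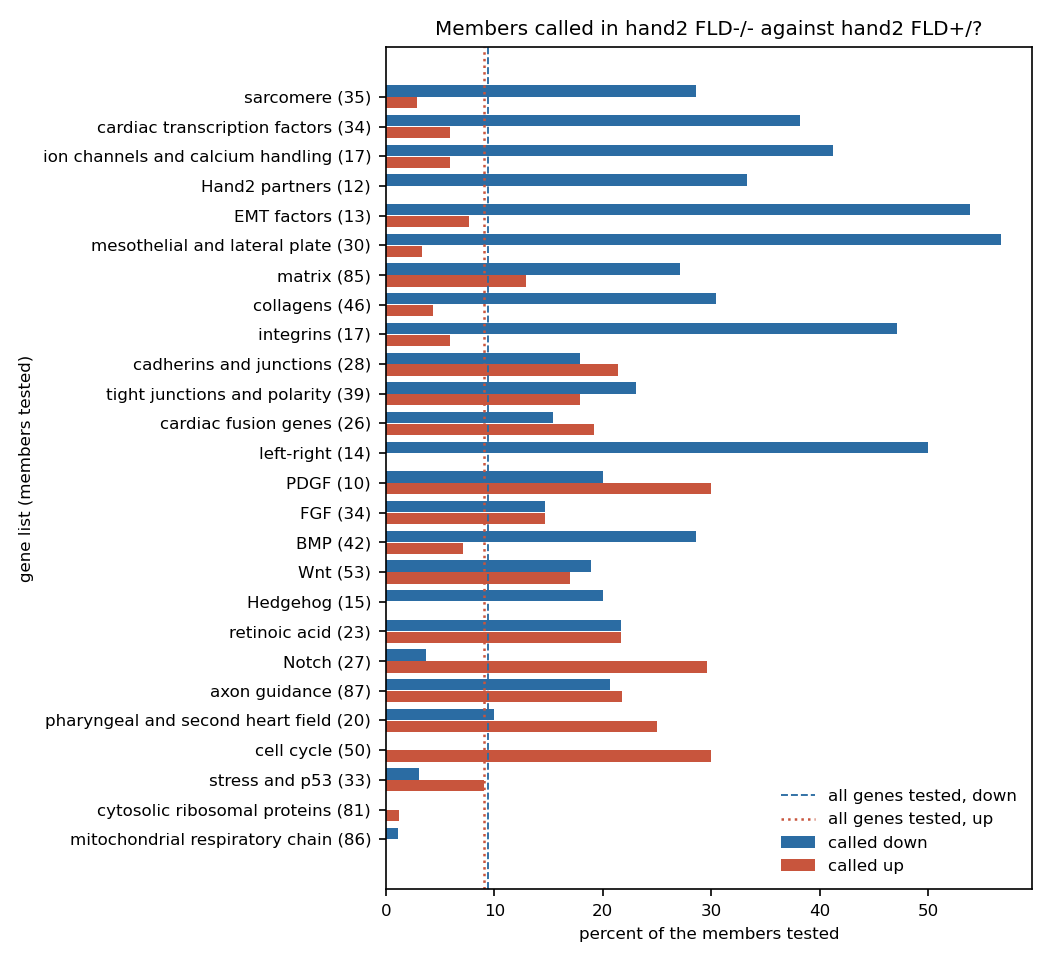
Percent of tested genes called down and up in hand2 FLD-/- against hand2 FLD+/? cardiomyocytes for each gene list, with the number tested beside its name and lines at the share over all genes, 9.43% down and 9.09% up. The lateral plate, epithelial-to-mesenchymal transition, left-right and integrin lists have the longest bars for genes called down, at 47.1% to 56.7%, and the PDGF, cell cycle and Notch lists the longest for genes called up, at 29.6% to 30.0%.

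Genes known to act in cardiac fusion, the meeting of the myocardial sheets at the midline, did not share a direction. Of 26 tested 4 fell and 5 rose (median −0.06). This list leaves out hand2 itself and pdgfra, which both fell (log2 fold changes of −4.01 and −1.51). The shares were 15.4% and 19.2%, with 9.43% and 9.09% of all genes. Beside fn1b and has2, the fallers were the apelin gene apln, which had 2615, 2901 and 2772 in mutants, against 4275, 4455 and 4422 in controls (log2 fold change −0.67, SE 0.04, adjusted p = 5.55e-06, limma), and the scaffold gene slc9a3r1a, which had 933, 931 and 953 in mutants, against 1920, 2078 and 2140 in controls. The other ligand of the apelin receptor rose together with the receptor gene: apela had 372, 416 and 418 in mutants, against 87, 115 and 109 in controls (log2 fold change 1.95, SE 0.15, adjusted p = 2.08e-05, limma). aplnrb had 418, 592 and 523 in mutants, against 105, 132 and 70 in controls (log2 fold change 2.34, SE 0.23, adjusted p = 9.15e-05, limma). The chemokine gene cxcl12a and its receptor gene cxcr4a rose too, cxcl12a to 843, 1029 and 923 in mutants, against 168, 210 and 128 in controls. cxcr4a rose to 80, 116 and 160 in mutants, against 8, 11 and 2 in controls. spns2, the sphingosine-1-phosphate exporter gene whose loss gives cardia bifida in zebrafish, was higher in mutants (208, 199 and 220 in mutants, against 38, 68 and 21 in controls, log2 fold change 2.43, SE 0.37, adjusted p = 0.00116, limma). These values come from sorted myocardial cells, while spns2 acts from the yolk syncytial layer, a layer outside the embryo proper.

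PDGF ligands guide the myocardial sheets and PDGF receptors receive them. Of 10 entries tested, for 9 gene symbols, 2 fell and 3 rose. The shares were 20.0% and 30.0%, with 9.43% and 9.09% of all genes. The receptor gene pdgfra fell to 1077, 1110 and 1006 in mutants, against 2953, 3015 and 3148 in controls (log2 fold change −1.51, SE 0.05, adjusted p = 2.59e-07, limma), and pdgfrl, a receptor-like gene, fell to 96, 79 and 30 in mutants, against 498, 515 and 490 in controls. The receptor gene pdgfrb, known from mural cells, rose to 253, 256 and 305 in mutants, against 33, 44 and 27 in controls (log2 fold change 2.96, SE 0.24, adjusted p = 2.58e-05, limma). Among ligand genes pdgfab had 687, 867 and 757 in mutants, against 57, 101 and 99 in controls (log2 fold change 3.19, SE 0.22, adjusted p = 1.00e-05, limma). pdgfba rose as well (1.94), and pdgfaa (−1.12), pdgfbb (0.28) and pdgfc (−1.33) were not called. Of these, pdgfaa had 17, 12 and 22 in mutants, against 34, 42 and 36 in controls. pdgfra and pdgfrb thus went opposite ways.

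Of 34 FGF genes tested 5 fell and 5 rose. That was 14.7% each way, with 9.43% and 9.09% of all genes. By part, 1 of 15 ligand genes fell and 3 rose. Of 7 receptor genes 3 fell and 1 rose. Of 12 target and inhibitor genes 1 fell and 1 rose. fgf17 was at 4, 8 and 1 in mutants, against 164, 134 and 134 in controls, near 0 in mutants. fgf22 had 217, 209 and 208 in mutants, against 13, 20 and 35 in controls. fgf20b had 535, 555 and 577 in mutants, against 192, 149 and 184 in controls. Among receptors, fgfr3 had 625, 693 and 702 in mutants, against 2289, 2305 and 2222 in controls (log2 fold change −1.75, SE 0.06, adjusted p = 2.59e-07, limma). fgfr4 had 2110, 2223 and 2227 in mutants, against 4196, 4352 and 4245 in controls (log2 fold change −0.96, SE 0.03, adjusted p = 3.26e-07, limma). fgfrl1b, a receptor without kinase domain, fell too (−1.16). fgfr1b rose (0.96). The feedback genes spry4, etv5b and dusp6, read-outs of pathway activity, were abundant and had overlapping groups, with log2 fold changes of 0.03, 0.04 and −0.04.

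Bmp genes leaned down. Of 42 tested 12 fell and 3 rose (28.6% and 7.14%, with 9.43% and 9.09% of all genes, median −0.32). Among the 12 ligand genes 6 fell, none rose and 11 had a negative log2 fold change. bmp10, the ligand of the trabecular myocardium, had 39, 51 and 47 in mutants, against 267, 323 and 221 in controls (log2 fold change −2.53, SE 0.22, adjusted p = 3.71e-05, limma). bmp5 had 267, 296 and 209 in mutants, against 1325, 1393 and 1356 in controls. bmp3 had 175, 204 and 138 in mutants, against 716, 728 and 673 in controls. In each of the 3 genes the highest mutant value lay well below the lowest control value. bmp4, the most abundant ligand gene, had 2737, 2921 and 2966 in mutants, against 3351, 3403 and 3353 in controls, a log2 fold change of −0.23 that missed the threshold. The msx genes are transcribed in response to Bmp: msx3 had 300, 341 and 290 in mutants, against 1927, 2097 and 2211 in controls (log2 fold change −2.74, SE 0.08, adjusted p = 1.65e-07, limma). msx1b had 105, 115 and 73 in mutants, against 539, 555 and 552 in controls (log2 fold change −2.50, SE 0.17, adjusted p = 1.13e-05, limma), while the feedback inhibitor gene smad6a had 1707, 1823 and 1867 in mutants, against 2164, 2199 and 2219 in controls (log2 fold change −0.29). None of 6 receptor genes was called in either direction. At a smaller fold, 2 of them had an adjusted p of 0.05 or less in limma on the lower side. At any fold 2642 of all 17877 genes did. Of 17 inhibitor genes 4 fell and 3 rose. The follistatin gene fsta was among those that fell (125, 174 and 229 in mutants, against 694, 738 and 709 in controls), and the Noggin gene nog2 among those that rose (342, 374 and 314 in mutants, against 158, 235 and 146 in controls).

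Left-right genes of the Nodal pathway were mostly lower. Of 14 tested, 7 fell, none rose, and 11 had an adjusted p of 0.05 or less in limma on the lower side (median −0.92). spaw, the zebrafish Nodal gene of the left lateral plate, had 9, 36 and 8 in mutants, against 504, 600 and 491 in controls (log2 fold change −5.15, SE 0.48, adjusted p = 6.60e-05, limma, −5.81 without the second mutant library). Nodal switches on its inhibitor genes lft1 and lft2. lft2 had 409, 576 and 442 in mutants, against 1381, 1446 and 1232 in controls. lft1 had 39, 82 and 89 in mutants, against 199, 207 and 135 in controls. In spaw, lft2 and lft1 every mutant was below every control, spaw by the most. ndr2, another Nodal gene, fell to 33, 83 and 26 in mutants, against 373, 404 and 283 in controls, and the co-receptor gene tdgf1 missed the fold threshold at 1146, 1166 and 1239 in mutants, against 1662, 1729 and 1624 in controls. spaw is transcribed mainly on the left side, and the sorted cells came from both sides.

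Wnt genes were split, with 10 of 53 falling and 9 rising (18.9% and 17.0%, with 9.43% and 9.09% of all genes, median −0.11). Of 16 ligand genes wnt2 and wnt2bb fell and 3 rose, with log2 fold changes of 0.89 to 3.71 in those that rose. wnt2bb, a lateral plate signal for the zebrafish liver, fell to 72, 80 and 76 in mutants, against 343, 336 and 392 in controls (log2 fold change −2.21, SE 0.15, adjusted p = 8.93e-06, limma). The extracellular Wnt inhibitor genes of the Dickkopf family went opposite ways. dkk1a had 21, 61 and 14 in mutants, against 500, 568 and 581 in controls (log2 fold change −4.33, SE 0.44, adjusted p = 1.08e-04, limma, −4.92 without the second mutant library). dkk1b had 218, 364 and 374 in mutants, against 73, 57 and 84 in controls (log2 fold change 2.12, SE 0.25, adjusted p = 2.37e-04, limma). dkk2 had 492, 602 and 577 in mutants, against 9, 18 and 18 in controls (log2 fold change 5.18, SE 0.29, adjusted p = 3.34e-06, limma). The Notum genes encode lipases that inactivate Wnt, and notum1b fell to 78, 26 and 40 in mutants, against 534, 642 and 509 in controls. nkd2a, an intracellular inhibitor gene, fell to 18, 39 and 15 in mutants, against 116, 104 and 94 in controls. nkd1 rose to 748, 1054 and 951 in mutants, against 501, 490 and 309 in controls. wnt11, a ligand gene of non-canonical signalling in the heart, was at 1374, 1471 and 1453 in mutants, against 1734, 1729 and 1811 in controls and missed the threshold.

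Notch genes leaned up, with 8 of 27 rising and 1 falling (29.6% up with 9.09% over all genes, median 0.39). The ligand genes jag1a, dlc and dll4 rose, jag1a to 229, 157 and 129 in mutants, against 43, 36 and 22 in controls (log2 fold change 2.33, SE 0.33, adjusted p = 7.17e-04, limma). dll4 rose to 371, 443 and 392 in mutants, against 220, 254 and 211 in controls (log2 fold change 0.81, SE 0.12, adjusted p = 9.82e-04, limma). The target gene hey1 rose to 119, 233 and 87 in mutants, against 38, 66 and 41 in controls. her4.1, a target gene known from neural tissue, was the gene that fell (83, 74 and 92 in mutants, against 123, 169 and 167 in controls). Leaving out the first control library or the second mutant library took the adjusted p of hey1 to 0.0552 or 0.0561 in limma, and leaving out the second control library took that of her4.1 to 0.0547. jag1a, dll4 and hey1 are also transcribed in endothelium, whose summed marker level in mutants was 2.43 times that of controls, and the part of such cells in these differences was not tested.

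Of 15 Hedgehog genes 3 fell and none rose. That was 20.0% down, with 9.43% down and 9.09% up of all genes. The 3 were cell surface genes that bind the ligand: hhip, an inhibitor and target, had 948, 921 and 789 in mutants, against 2001, 1992 and 1805 in controls (log2 fold change −1.13, SE 0.08, adjusted p = 1.00e-05, limma). cdon had 1490, 1489 and 1427 in mutants, against 3114, 3089 and 3116 in controls (log2 fold change −1.08, SE 0.04, adjusted p = 2.73e-07, limma). gas1b had 795, 779 and 639 in mutants, against 1131, 1045 and 1368 in controls. Its change was just under the fold threshold without the third control or the third mutant library (log2 fold change −0.57 or −0.58). smo, which transmits the signal, had 2302, 2195 and 2105 in mutants, against 2119, 2156 and 2255 in controls, and its groups overlapped.

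Of 23 retinoic acid genes 5 fell and 5 rose. The share was 21.7% each way, with 9.43% and 9.09% of all genes. The synthesis gene aldh1a2 fell to 41, 41 and 55 in mutants, against 159, 202 and 140 in controls (log2 fold change −1.84, SE 0.24, adjusted p = 4.67e-04, limma), and the degradation genes cyp26c1 and cyp26b1 rose, cyp26c1 to 3195, 3269 and 3351 in mutants, against 556, 686 and 789 in controls (log2 fold change 2.29, SE 0.11, adjusted p = 1.25e-06, limma). cyp26b1 had 2151, 2083 and 2194 in mutants, against 1193, 1345 and 1394 in controls (log2 fold change 0.71). The groups were apart in all 3 genes, and cyp26c1 was among the 10 most abundant risers of the comparison. Receptor genes were mixed, with raraa lower (−1.85) and rarga higher (0.86). Of 11 TGF-beta genes the induced gene tgfbi rose (1823, 1702 and 1763 in mutants, against 312, 486 and 419 in controls) and the other 10 were not called.

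The semaphorin, ephrin, netrin and slit families guide axons and also vessels and heart cells. Of 87 tested, 18 fell and 19 rose, with a median of −0.04. The shares were 20.7% and 21.8%, with 9.43% and 9.09% of all genes. sema3e, a repellent of endothelial cells, had 168, 212 and 160 in mutants, against 1540, 1584 and 1790 in controls (log2 fold change −3.19, SE 0.12, adjusted p = 3.81e-07, limma). sema3fa and sema3bl, of the same class, rose. sema3fa had 589, 592 and 694 in mutants, against 125, 163 and 101 in controls. sema3bl had 336, 329 and 329 in mutants, against 53, 65 and 75 in controls. The netrin receptor genes unc5da and unc5db went opposite ways, with log2 fold changes of 3.41 and −3.92, and unc5da was at 2.42 without the first control library. Its adjusted p in limma was 0.0501 without the third mutant library and 0.0507 with no variance trend. ntn2, a netrin gene, was at 47, 44 and 13 in mutants, against 0, 0 and 0 in controls. ednrab, an endothelin receptor gene of a Gene Ontology list, fell to 164, 176 and 177 in mutants, against 987, 987 and 1100 in controls (log2 fold change −2.56, SE 0.09, adjusted p = 3.21e-07, limma).

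Neighbouring fields were represented as well. Of 16 genes of the pectoral fin field 3 fell (and1, wnt2bb and tbx5a) and 2 rose. In percent these were 18.8% and 12.5%, with 9.43% and 9.09% of all genes. en1b, a homeobox gene of the ventral fin ectoderm, had 1077, 1130 and 1120 in mutants, against 4, 27 and 5 in controls (log2 fold change 6.88, SE 0.56, adjusted p = 2.70e-05, limma, 7.66 without the second control library). prdm1a, needed for fin outgrowth, rose to 1385, 1619 and 1567 in mutants, against 503, 452 and 398 in controls (log2 fold change 1.76, SE 0.10, adjusted p = 3.15e-06, limma). Of 20 genes of pharyngeal mesoderm and the second heart field, the source of later-added heart cells, 2 fell and 5 rose. isl1, a LIM homeobox gene of that field, fell to 622, 696 and 654 in mutants, against 1113, 1145 and 1246 in controls (log2 fold change −0.83, SE 0.07, adjusted p = 3.50e-05, limma). six1a and eya1, which act as a complex in pharyngeal progenitors, rose, six1a to 713, 726 and 746 in mutants, against 113, 125 and 130 in controls. eya1 rose to 583, 514 and 590 in mutants, against 122, 193 and 201 in controls. tbx1, a regulator of the pharyngeal arches, was at 1358, 1535 and 1486 in mutants, against 1124, 1220 and 1204 in controls and under the fold threshold (log2 fold change 0.30).

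Cell cycle genes leaned up. Of 50 cell cycle genes none fell and 15 rose (median 0.44). At any fold, 29 had an adjusted p of 0.05 or less in limma on the higher side, as had 2650 of all 17877 genes. The 15 were 30.0% of the list, with 9.09% of all genes called higher. e2f1, which drives entry into DNA replication, had 170, 210 and 144 in mutants, against 47, 65 and 26 in controls (log2 fold change 1.98, SE 0.34, adjusted p = 0.00206, limma). ccne2 had 536, 618 and 482 in mutants, against 260, 258 and 237 in controls, and cdc6, which licenses origins, had 493, 618 and 510 in mutants, against 211, 318 and 235 in controls. The helicase gene mcm2 was abundant and rose by little, to 2707, 2740 and 2897 in mutants, against 1711, 1817 and 1934 in controls (log2 fold change 0.61, SE 0.05, adjusted p = 3.34e-05, limma), and it missed the fold threshold without the first control or the third mutant library (log2 fold change 0.57 or 0.58). mki67, a marker of cycling cells, stayed under the fold threshold with 2965, 2892 and 2920 in mutants, against 2095, 2245 and 2408 in controls. cdkn1cb, an inhibitor of the cycle, rose too (287, 347 and 280 in mutants, against 117, 123 and 150 in controls). Among 33 stress and p53 genes 1 fell and 3 rose (median 0.03). The shares were 3.03% and 9.09%, with 9.43% and 9.09% of all genes. The small heat shock gene hspb1 fell to 518, 544 and 569 in mutants, against 964, 905 and 807 in controls.

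Few genes of general metabolism were called, though most had a negative log2 fold change. Over all genes 9.43% were called lower and 9.09% higher. Signs of log2 fold changes near 0 can depend on the scaling, since equal totals moved the median of all genes from 0.00 to 0.05. Of 81 cytosolic ribosomal protein genes none fell and 1 copy of rpl37 rose (163, 190 and 155 in mutants, against 108, 89 and 75 in controls), with a median of −0.08 and a negative value in 75. Of 86 respiratory chain genes cox6b1 fell and none rose, with a median of −0.17 and a negative value in 82. cox6b1 had 100, 139 and 95 in mutants, against 211, 185 and 181 in controls (adjusted p = 0.0504 in limma without the first control library). At any fold, 14 of the 86 had an adjusted p of 0.05 or less in limma on the lower side and none on the higher. Over all 17877 genes tested, 2642 passed on the lower side.

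Markers of other cells were looked up over whole lists, since a sort can hold neighbours. Of 28 endothelial markers 19 rose and 1 fell, with a median log2 fold change of 2.01. Called higher and lower were 67.9% and 3.57%, with 9.09% and 9.43% of all genes. Their summed level was 9823 to 9990 in mutants and 3943 to 4209 in controls. tie1, a receptor gene of endothelium, had 458, 479 and 370 in mutants, against 45, 32 and 101 in controls (log2 fold change 3.01, SE 0.36, adjusted p = 2.78e-04, limma), and gata2a, a blood and vessel factor, had 426, 506 and 414 in mutants, against 33, 100 and 45 in controls (log2 fold change 3.05, SE 0.35, adjusted p = 2.10e-04, limma). The flt1 gene, a receptor of VEGF, had 209, 201 and 293 in mutants, against 43, 18 and 60 in controls. lmo2, egfl7 and ets1 were higher by less than the threshold (0.54, 0.55 and 0.25), which egfl7 passed without the first control library (0.59) and lmo2 without the third (0.67), and each of these 2 also without the first mutant library (0.60 for egfl7 and 0.62 for lmo2). The faller was the scavenger receptor gene stab1, with 95, 77 and 95 in mutants, against 568, 737 and 632 in controls (log2 fold change −2.84, SE 0.15, adjusted p = 2.16e-06, limma). The part of endothelial cells in the genes higher in mutants, cdh5, esama, cldn5a, col4a1, aplnrb and the Notch genes among them, was not tested.

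Smaller lists moved as well, where 9.43% of all genes were called lower and 9.09% higher. Of 6 pronephros and intermediate mesoderm markers 3 rose and none fell, with sums of 376 to 698 in mutants and 53 to 96 in controls. lhx1a, a LIM homeobox gene of kidney progenitors, had 152, 222 and 176 in mutants, against 4, 4 and 15 in controls. pax2a had 177, 292 and 166 in mutants, against 58, 12 and 16 in controls. Of 12 yolk syncytial layer markers 3 fell and none rose, with sums of 676 to 825 in mutants and 1914 to 2127 in controls, mostly from apoeb (579, 673 and 644 in mutants, against 1634, 1682 and 1642 in controls). Of 8 notochord and floor plate markers tbxta rose (867, 718 and 834 in mutants, against 86, 23 and 30 in controls) and ntd5 fell (33, 54 and 51 in mutants, against 102, 106 and 101 in controls). The sum of that list was 1016 to 1886 in mutants and 248 to 409 in controls. That every mutant sum was higher rested on tbxta, and the median log2 fold change of the list was 0.10. The second mutant library was the highest through col2a1a (69, 913 and 51 in mutants, against 64, 134 and 29 in controls). Of 10 endoderm markers 2 rose and none fell (584 to 740 in mutants and 249 to 330 in controls).

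For each of the 7 remaining lists the mean sum in mutants was 0.659 to 1.54 times that of controls. Erythroid markers had 3 of 17 up and none down, and neural markers 4 of 20 up and 2 down. Neural crest markers had 1 of 9 up and 1 down, and myeloid markers 1 of 11 up and 1 down. Skeletal muscle and somite markers had 1 of 19 up and none down. Called higher were 17.6% of erythroid and 20.0% of neural markers, with 9.09% of all genes called higher and 9.43% lower. Neural crest markers (11.1% each way), myeloid markers (9.09% each way) and skeletal muscle and somite markers (5.26% up) were near or under those shares. Of 17 epidermal markers 1 rose and 2 fell, among them krt94 (264, 317 and 260 in mutants, against 1152, 1250 and 1084 in controls). The second control library stood out in that list, with a sum of 6003 beside 2967 to 3129 in the other controls and 2576 to 2812 in mutants, and krt4 was at 575, 480 and 526 in mutants, against 303, 1469 and 433 in controls. None of 5 hatching gland markers was called.

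**Figure D5:**
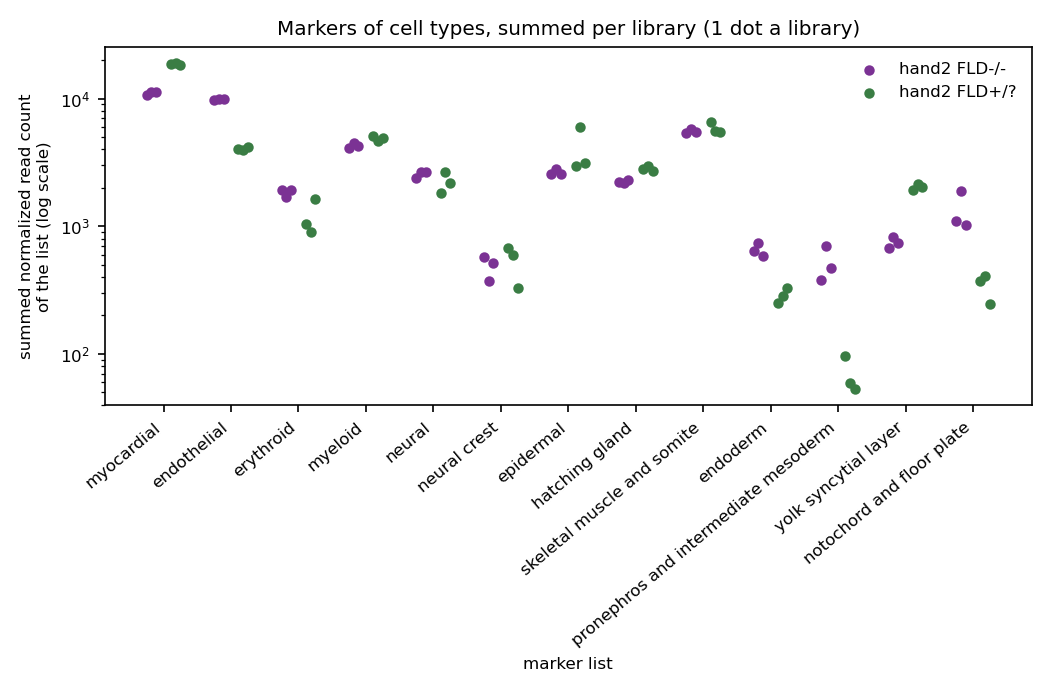
Summed normalized read counts of the marker genes of each cell type by library (log scale), in hand2 FLD-/- and hand2 FLD+/? cardiomyocytes. Myocardial markers, the deleted gene hand2 among them, sum to 10698 to 11345 in mutants and 18239 to 18894 in controls. Endothelial and pronephros markers sum higher in all mutants than in all controls, and yolk syncytial layer markers sum lower. The notochord sum is higher in all mutants too, through tbxta, while of its 8 markers 1 rose and 1 fell.

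Beyond the lists, the 15 genes furthest down and the 15 furthest up among called genes with a mean of at least 50 and no overlap included several receptors and secreted proteins. On the lower side sstr5, a somatostatin receptor gene, was at 0, 17 and 0 in mutants, against 381, 391 and 268 in controls. masp1, a complement protease gene, was at 0, 9 and 8 in mutants, against 436, 372 and 464 in controls. ccbe1, the gene of a secreted factor of lymphatic growth, was at 5, 12 and 0 in mutants, against 333, 312 and 345 in controls. All 3 were at 17 or less in every mutant library. alkal2b, a ligand gene of ALK-type receptor kinases, was at 0 in all mutants and at 122, 126 and 123 in controls. On the higher side p2rx1, an ATP-gated channel gene, was at 565, 436 and 559 in mutants, against 4, 12 and 4 in controls. penka, which encodes an enkephalin precursor, was at 641, 643 and 636 in mutants, against 23, 5 and 36 in controls. These genes were low in controls, as was cd81b, a tetraspanin gene (276, 367 and 340 in mutants, against 3, 13 and 6 in controls). cacna2d3, a calcium channel subunit gene, was at 562, 583 and 666 in mutants, against 54, 21 and 2 in controls. rgs5b, a G protein regulator gene, was at 83, 100 and 135 in mutants, against 0, 6 and 3 in controls. That all mutants of these genes lay to one side of all controls was a condition of their choice.

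Some genes were listed at or near 0 in 1 group. There were 17 genes at 3 or less in every mutant with a mean of at least 50 in controls, and 3 genes at 3 or less in every control with a mean of at least 50 in mutants. Taking 3 counts as the floor of a library, svep1 was at least 265-fold lower in mutants, clcn2a at least 55.6-fold lower and alkal2b at least 41.2-fold lower, and spon1a was at least 66.0-fold higher. These bounds cover counting error only.

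Among the most abundant genes that fell was podxl, a sialomucin gene of apical surfaces, with 3140, 3241 and 3382 in mutants, against 5327, 5430 and 5219 in controls (log2 fold change −0.71, SE 0.03, adjusted p = 1.33e-06, limma). alcamb, an adhesion molecule gene, had 1762, 1930 and 1852 in mutants, against 3366, 3525 and 3672 in controls (log2 fold change −0.93, SE 0.05, adjusted p = 1.75e-06, limma). myh7bb, a myosin heavy chain gene, had 1407, 1301 and 1313 in mutants, against 3885, 3552 and 3703 in controls (log2 fold change −1.47, SE 0.05, adjusted p = 2.59e-07, limma). Those that rose included nufip2, an RNA-binding protein gene, with 2918, 2842 and 2877 in mutants, against 1328, 1139 and 1150 in controls (log2 fold change 1.26, SE 0.06, adjusted p = 1.43e-06, limma). rrp12, a ribosome biogenesis gene, had 2190, 2182 and 2210 in mutants, against 1415, 1409 and 1417 in controls (log2 fold change 0.63, SE 0.04, adjusted p = 4.49e-06, limma).

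Around the deletion, 16 genes within 1 Mb of hand2 were tested, of which 3 fell (18.8%) and 1 rose (6.25%). The shares of all genes tested were 9.43% and 9.09%. GALNTL6, a glycosyltransferase gene between 37752171 and 38132612 on chromosome 1, had 367, 267 and 290 in mutants, against 945, 969 and 1218 in controls (log2 fold change −1.76, SE 0.14, adjusted p = 2.27e-05, limma). asb5b, an ankyrin repeat gene, had 269, 293 and 302 in mutants, against 692, 655 and 739 in controls, and the lymphatic growth factor gene vegfc had 6, 27 and 35 in mutants, against 94, 98 and 88 in controls (log2 fold change −2.30, SE 0.57, adjusted p = 0.0144, limma, −1.57 without the first mutant library). gpm6ab, a membrane glycoprotein gene, rose (123, 165 and 108 in mutants, against 55, 35 and 12 in controls). With no trend of the variance on the mean the adjusted p in limma was 0.0632 for vegfc and 0.0550 for gpm6ab. Each of the 4 had groups that did not overlap, as had 3302 of the 3310 called genes. Within 10 Mb the shares were 8.33% down and 9.17% up of 240 genes. Mutants share the chromosome that carries the deletion on both copies, so effects of hand2 loss and of linked variants cannot be told apart for these genes.

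The mutants were not alike in how far the lost genes fell. Of 12358 genes with a control mean of at least 50 the second mutant library held the highest of the mutant values in 30.9%, and of the 419 called down by more than 4-fold among them in 45.8%, with 26.7% for the first and 22.7% for the third. hand2 itself was highest in the second mutant library and lowest in the third (149, 427 and 45), and vcanb, twist1b, fn1b, lum and fmoda had the same order. snai2, svep1 and megf10 were highest in the second library as well, but svep1 had 3 counts there and megf10 had 8. What the second library has in common in these genes was not tested.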

How the data were processed

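RNA from cardiomyocytes sorted from 3 hand2 FLD-/- and 3 hand2 FLD+/? pools was sequenced after SMART-Seq HT amplification. By the study's methods, single-end reads were trimmed with Trimmomatic 0.39, aligned to danRer11 with STAR 2.7.10a and counted over Ensembl genes with featureCounts 2.0.2, leaving out reads that map to several places or genes. Whether strand was used in counting is not given in the sources used here. The values the authors deposited are a score in the sense that they are counts divided by 1 factor per library in DESeq2 1.30.1 and rounded to whole numbers, so no count model was fitted. All 6 columns mapped to a library by name.

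Genes that averaged 5 or more were tested with limma 3.58.1 (R 4.3.3) on log2(value + 1), with a variance trend and Benjamini-Hochberg adjustment over all 17877 genes. Fold changes are on that scale, which understates changes of low genes. A gene was called at an adjusted p of 0.05 or less and a change of more than 1.5-fold. The fit was tested on simulated data. Alternatives were pseudocounts of 0.5 and 5, no filter or a mean of at least 20, equal totals or median-ratio scaling, no trend, library weights, a replicate block, each library left out, and other fold thresholds. Tables and figures were made in Python 3.11.15 (numpy 2.4.6, pandas 2.3.3, matplotlib 3.10.9).

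Genes named are hand2, called genes within 1 Mb of it, the 15 of largest fold (mean of at least 50, no overlap) and the 10 most abundant called in each direction, and in each list up to 6 called genes a direction and the 3 most abundant uncalled; an item the rule names is not reported here. The gene lists and the comparison were chosen with earlier results of these data known. Depth was about 6527481 to 7658592 counted reads per library.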

Additional observations from a re-analysis of the deposited data

How the results depend on the processing

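The counts of 1685 lower and 1625 higher genes stayed within 1.5 times under every alternative but the fold threshold: without one, 2642 were lower and 2650 higher, and at a 2-fold threshold 915 were higher. Leaving out 1 library gave 1391 to 1651 lower and 1345 to 1591 higher genes. With the replicate block the counts were 1613 and 1573, hand2 was at −4.01 (adjusted p = 0.00268, limma), and 192 of the 193 called genes named here were called, hoxb8a being lost (adjusted p = 0.0516). The shared replicate numbers had little support as pairs. Deviations of same-numbered libraries correlated at 0.04, 0.06 and 0.04, under the 0.1 taken as needed for pairing, though highest for its own number in each library. hand2 ranged from −4.80 to −3.19 over its alternatives, both ends being values with 1 library left out. Scaling the libraries to equal totals moved the median of all genes to 0.05 and the share of lower genes among the calls to 46.6%, from 50.9%, and turned log2 fold changes near 0 in uncalled genes, to 0.02 for nkx2.5, 0.01 for ttn.1, 0.00 for dusp6 and 0.00 for itga5. Leaving out 1 library likewise turned the sign of 6 uncalled genes, whose log2 fold changes ranged from −0.13 to 0.06 for ttn.1, −0.02 to 0.05 for smo, −0.07 to 0.00 for dusp6, −0.04 to 0.02 for nkx2.5, −0.09 to 1.98 for col2a1a and −0.60 to 0.54 for krt4. Of the 193 called genes, 31 moved by more than 1.5 times in fold when 1 library was left out, without a turn in direction. A variance with no trend on the mean left 183 of the 193 called, the exceptions being fgfr1b, gpm6ab, hey1, itga6b, lft1, osr1, osr2, unc5da, vegfc and zeb2b (adjusted p = 0.0507 to 0.101, limma). The shares called lower and higher were 6.11% and 4.64% among genes with means up to 34.0, 13.0% and 13.1% with means of 34.2 to 179, 10.4% and 13.2% up to 532, and 8.14% and 5.46% from 533, and the part of depth in this was not tested.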

Other observations

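Of 26 Hox genes 7 rose in mutants and none fell (26.9% up, median log2 fold change 0.88, beside 9.09% and 0.00 over all genes). The anterior gene hoxb1b had 146, 116 and 113 in mutants, against 77, 69 and 61 in controls (log2 fold change 0.84, SE 0.22, adjusted p = 0.0166, limma), and without the first mutant library its adjusted p was 0.0638 in limma. hoxa4a had 273, 311 and 253 in mutants, against 61, 118 and 107 in controls (log2 fold change 1.59, SE 0.25, adjusted p = 0.00124, limma). The more posterior gene hoxb8a had 69, 93 and 87 in mutants, against 36, 29 and 56 in controls (log2 fold change 1.06, SE 0.32, adjusted p = 0.0333, limma). Without the second or the third mutant library, or the first or the second control library, the adjusted p of hoxb8a was 0.0842 to 0.109 in limma. hoxb3a, the most abundant member, was at 959, 976 and 944 in mutants, against 1039, 1061 and 1062 in controls and was not called.

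Of 23 Sox genes 5 fell and 6 rose. The shares were 21.7% and 26.1%, with 9.43% and 9.09% of all genes. sox7, an endothelial member, had 886, 1021 and 986 in mutants, against 95, 173 and 227 in controls (log2 fold change 2.63, SE 0.26, adjusted p = 9.71e-05, limma). sox2, a neural and endodermal member, had 315, 334 and 376 in mutants, against 52, 125 and 137 in controls. sox6, a muscle member, had 229, 275 and 213 in mutants, against 645, 601 and 507 in controls (log2 fold change −1.29, SE 0.13, adjusted p = 1.09e-04, limma). Of 44 forkhead genes 5 fell and 6 rose (11.4% and 13.6%, beside 9.43% and 9.09% of all genes), the furthest upward being foxi2, a gene of pharyngeal arches, with 633, 660 and 627 in mutants, against 7, 30 and 0 in controls (log2 fold change 6.67, SE 0.99, adjusted p = 9.52e-04, limma, 5.35 without the third control library). The part of endothelial or neural cells in the higher Sox genes was not tested. Of 18 Klf genes 1 fell and 3 rose (5.56% and 16.7%). klf2a, which is also on the endothelial marker list, had 237, 201 and 156 in mutants, against 108, 86 and 77 in controls.

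Of 290 solute carrier genes 30 fell and 31 rose (10.3% and 10.7%). Shares of all genes tested were near these, at 9.43% and 9.09%. slc18a2, a monoamine transporter gene, had 271, 206 and 246 in mutants, against 5, 15 and 5 in controls (log2 fold change 4.85, SE 0.43, adjusted p = 4.65e-05, limma), and slc32a1, a transporter gene for inhibitory transmitters, had 94, 59 and 94 in mutants, against 444, 467 and 522 in controls (log2 fold change −2.55, SE 0.20, adjusted p = 2.16e-05, limma). Of 126 genes annotated as G protein-coupled receptors 25 fell and 20 rose (19.8% and 15.9%). Among genes annotated to other roles, cx43, a gap junction gene, rose to 172, 148 and 152 in mutants, against 15, 10 and 20 in controls (log2 fold change 3.35, SE 0.33, adjusted p = 8.25e-05, limma), and atp1b2b, a sodium pump subunit gene, fell to 32, 48 and 33 in mutants, against 408, 479 and 547 in controls (log2 fold change −3.64, SE 0.21, adjusted p = 4.49e-06, limma). The annotation gives 596 of the genes tested an antisense, lincRNA or processed transcript biotype. Protein-coding genes such as pln and rxrga are among them, so the set is not made of noncoding RNA alone. Of the 596, 52 fell and 34 rose (8.72% and 5.70%), shares under those of all genes. Their means were low, with a median of 21.0, and genes of any kind with means up to 34.0 had shares of 6.11% and 4.64%.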
